A study of Mus musculus with 15 samples.

Results

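Respiratory complexes II to V carry electrons from succinate and ubiquinol to oxygen and make ATP from the resulting proton gradient in the inner mitochondrial membrane. Complex II is succinate dehydrogenase, which is also a citrate cycle enzyme. Complex III is the cytochrome bc1 complex, complex IV is cytochrome c oxidase and complex V is ATP synthase. Complexes III to V combine a few subunits made from mitochondrial DNA with many made in the cytosol from nuclear genes, while every subunit of complex II is nuclear. Neurons depend heavily on this route for ATP. MPTP, the toxin used here, is known for a metabolite that enters dopamine neurons and blocks complex I, which stands before these complexes in the chain.

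The nuclear subunit genes of complexes II to V were found by symbol, as Sdha to Sdhd, Cyc1, and symbols beginning with Uqcr, Cox4 to Cox8 or Atp5. Of the 45777 gene symbols measured, 48 matched after 7 pseudogene symbols were left out. A minimum of 10 reads in at least 3 libraries kept 47 genes, of which 4 belong to complex II, 9 to complex III, 17 to complex IV and 17 to complex V. The gene left out was Cox8c, with 0 reads in all 15 libraries. Just inside the minimum lay Cox8b, which reached 10 reads in 8 libraries. All 47 genes were among the 21821 tested, and 41 of them had a mean of at least 20 CPM, where CPM is the read count divided by the TMM-scaled library total, on the usual CPM scale. Levels and marker sums printed in CPM for genes outside the 47 use the library total of all reads without TMM scaling.

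Brain messenger RNA was sequenced in 5 groups of 3 mouse libraries. Controls had no toxin and a normal diet, for 5 weeks in the sample labels and 6 weeks in the protocol. The other 4 groups all received MPTP at 20 mg/kg/day for 1 week. One of these had 4 weeks of normal diet and no drug afterwards (here called MPTP). Another was given levodopa at 2 mg/kg/day for 4 weeks, and 2 were given an inhibitor of Bruton's tyrosine kinase (BTK) for 4 weeks. For every library the sources give a time of 6 weeks and a stabilization of 7 days. The inhibitor is not named. Its low dose is labelled 1 µg/kg/day in the protocol and 25 pM in the sample labels, and its high dose 2 µg/kg/day and 50 pM. Levodopa was given by mouth per the protocol and by intraperitoneal injection per the sample labels. The sources used here name no brain region, strain, age or sex, and do not say whether each library is 1 of the 8 mice in a group. The p-values therefore measure only the spread between these libraries, which may be technical. In whole tissue, fewer cells of a type and less RNA per cell cannot be told apart.

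Some libraries stood apart before any comparison. The 6 inhibitor libraries totalled 58149722 to 61998459 reads, fewer than the 63314658 to 68257095 of the remaining 9, and mitochondrial ribosomal RNA took 0.937 to 1.48% against 0.244 to 0.880%. Neuronal markers (Snap25, Syt1, Rbfox3 and Tubb3) summed to between 2720 and 4099 CPM in every library. The sum of 8 cerebellar markers reached 5822 CPM in control 2 and 4725 in levodopa 2, and was 133 to 495 CPM in the other 13 libraries. The sum of 8 cortical and hippocampal markers ran from 219 to 1039 CPM with the inhibitor and from 17.6 to 691 CPM without it, with those 2 libraries as the highest of the latter 9. The sum of 8 thalamic and midbrain markers was 210 to 694 CPM with the inhibitor and 949 to 1322 CPM in MPTP libraries, without overlap. In controls it was 576 to 1175 CPM, and after levodopa 483 to 790 CPM. Endothelial and pericyte markers summed to 133 to 212 CPM with the inhibitor and 180.2 to 408 CPM without it. Choroid plexus markers, mostly Ttr, summed to 294 to 1494 CPM with the inhibitor and 10.6 to 22.3 CPM in MPTP libraries, and control 3 reached 904 CPM. Striatal markers summed to 303 to 1027 CPM with the inhibitor and 103 to 117 CPM in MPTP libraries, and control 1 reached 1627 CPM. Dopamine neuron markers summed to 71.9 to 405 CPM with the inhibitor and 479.6 to 701 CPM in MPTP libraries. Their sums were 153, 264 and 458 CPM in controls and 304 to 617 CPM after levodopa. The part of these differences in the results that follow was not tested beyond the alternatives named beside them.

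Nuclear respiratory genes are known to share binding sites for NRF1 and for the ETS factor GABPA near their starts, so promoter bases are shown for 3 genes that rose after the inhibitor (Uqcr11, Atp5e and Cox6a1) and for 2 of complex II that did not pass the test (Sdha and Sdhd). They are RefSeq sequence of GRCm38.p6, all on the minus strand of the chromosome and printed 5′ to 3′ along the gene. Each stops before the earliest annotated start of the gene, and capitals mark the 10-base NRF1 consensus or the 7-base ETS letters CCGGAAG on either strand. The regions are chr10:80406831-80407071, chr2:174464106-174464351, chr5:115348982-115349208, chr13:74350281-74350490 and chr9:50603850-50604099, in the order printed.
Uqcr11: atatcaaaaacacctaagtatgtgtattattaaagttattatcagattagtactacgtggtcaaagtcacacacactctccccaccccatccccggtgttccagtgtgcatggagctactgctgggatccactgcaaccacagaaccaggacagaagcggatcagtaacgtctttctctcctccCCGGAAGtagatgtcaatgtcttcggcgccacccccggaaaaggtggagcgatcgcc
Atp5e: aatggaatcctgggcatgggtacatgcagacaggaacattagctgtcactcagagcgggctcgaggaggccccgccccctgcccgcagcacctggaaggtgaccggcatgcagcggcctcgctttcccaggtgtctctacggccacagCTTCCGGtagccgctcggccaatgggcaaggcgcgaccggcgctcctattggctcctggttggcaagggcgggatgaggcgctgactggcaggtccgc
Cox6a1: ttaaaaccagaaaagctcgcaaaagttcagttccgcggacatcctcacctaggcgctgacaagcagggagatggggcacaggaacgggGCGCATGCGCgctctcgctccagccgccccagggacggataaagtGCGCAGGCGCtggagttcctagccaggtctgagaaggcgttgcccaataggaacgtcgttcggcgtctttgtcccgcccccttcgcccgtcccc
Sdha: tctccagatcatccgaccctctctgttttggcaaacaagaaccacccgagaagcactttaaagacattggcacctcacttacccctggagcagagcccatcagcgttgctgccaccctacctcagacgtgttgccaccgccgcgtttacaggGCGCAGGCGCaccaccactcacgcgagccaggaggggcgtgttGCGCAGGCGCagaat
Sdhd: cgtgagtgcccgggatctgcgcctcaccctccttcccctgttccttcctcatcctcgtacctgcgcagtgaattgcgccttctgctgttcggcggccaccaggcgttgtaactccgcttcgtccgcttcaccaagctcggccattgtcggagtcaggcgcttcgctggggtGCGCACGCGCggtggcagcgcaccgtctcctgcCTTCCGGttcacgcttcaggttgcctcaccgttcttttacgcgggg
In the printed bases the first pair each held 1 ETS match, Cox6a1 and Sdha each held NRF1 matches at 2 places, and Sdhd held both kinds. Past the printed bases and before the RefSeq start, Cox6a1 also had an ETS match (−16 to −10) and Sdha a further NRF1 match (−10 to −1). Promoter windows of 300 bases, 250 before and 50 after the RefSeq start, were at hand for 36 of the 47 genes. The NRF1 consensus was found in 9 of the 36 (25.0%) and in 4.78% of all 27025 windows. ETS letters were found in 12 (33.3%) and in 9.12% of all windows. The YY1 letters ATGGCGGC were found in 0 of the 36 and in 2.38% of all windows. None of the 3 motifs lies within another, and the NRF1 consensus can read as a match on both strands at 1 place. Median GC content was 56.2% in the 36 windows and 52.7% in all. At least 1 match stood in 5 of the 8 windows of genes that passed a test below and in 12 of the 28 others. The windows of Cox5b, Uqcr10 and Uqcrfs1, which passed, held none. Every printed gene held a match, so the printed genes do not represent the members.

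After MPTP alone no change of these genes was detected. Against control, 0 of the 47 passed the test at an adjusted p of 0.05 (edgeR quasi-likelihood test, Benjamini-Hochberg adjustment), and the background was the same, with 0% of all 21821 genes called in either direction. No member had an unadjusted p below 0.05, while 1445 of all genes did. DESeq2 also called 0 members, and called 51 of all genes. The log2 fold change was negative for 34 members and positive for 13, with a median of −0.05 against −0.01 over all genes. This lean was lost without 1 library, control 3, where the median was 0.0076 with 26 members positive. Without each other compared library in turn the median stayed negative, and without control 1 it was −0.10 with 9 positive. Without MPTP 1 and without MPTP 3 it was −0.03 and −0.08. By complex, the medians were −0.01 (II), −0.08 (III), −0.05 (IV) and −0.03 (V). The lowest p belonged to Uqcr11, whose level was 51.5 ± 3.0 CPM in controls and 44.0 ± 2.2 in MPTP libraries (SD, n = 3; log2 fold change −0.23 ± 0.12, SE; adjusted p = 0.717).

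Levodopa after MPTP gave the same count. Against MPTP, 0 of 47 members and 0% of all genes were called, with 0 members and 645 genes at an unadjusted p below 0.05. DESeq2 called 0 members and 2 of all genes. Members divided into 23 with a positive and 24 with a negative log2 fold change, with a median of 0.00 for members and for all genes. Without levodopa 3 the median was 0.06 with 33 members positive, and without MPTP 3 it was 0.04 with 30 positive. Sdhc had the lowest p, with 89.3, 80.8 and 72.2 CPM after levodopa and 66.7, 68.3 and 72.6 CPM after MPTP, which overlap.

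After the BTK inhibitor, 9 members, all of complexes III, IV or V, rose against MPTP alone at 1 or both doses, and 0 fell. Of the 4 genes of complex II, 0 passed, and the difference between complexes was not tested. At the low dose, 6 members rose and 0 fell. All genes tested were called as rising in 4.78% of cases and as falling in 3.75%, so the members called are 6 of 47 beside a background of 4.78%. The 6 were Uqcr10, Uqcr11 and Uqcrq of complex III, Cox6a1 of complex IV, and Atp5e and Atp5l of complex V. At the high dose, 5 rose and 0 fell beside a background of 1.08% rising and 0.884% falling. These were Uqcr11 and Uqcrfs1 of complex III, Cox5b of complex IV, and Atp5k and Atp5l of complex V. Both doses are compared with the same 3 MPTP libraries, so their values are not independent. The median log2 fold change of the 47 was 0.24 at the low dose and 0.35 at the high dose, against −0.0045 and −0.01 over all genes. It was positive for 41 and 42 members, and 17 and 27 had an unadjusted p below 0.05 (5632 and 4045 of all genes).

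These calls rest on few libraries. Leaving out any 1 of the 6 compared libraries gave between 1 and 7 members at the low dose and 0 each time at the high dose. Without MPTP 1, MPTP 2 and MPTP 3 the low dose called 2, 1 and 1. Those fits called 421 to 1300 of all genes at the low dose and 18 to 138 at the high dose. With scores of cerebellar, cortical and hippocampal, and thalamic and midbrain markers as covariates, 0 members were called at either dose and 0 and 1 of all genes, while the member medians were 0.43 and 0.47. Without control 2 and levodopa 2, which had the high cerebellar sums, 11 and 13 members rose, beside 12.0% and 5.89% of all genes. Regional markers were called in the same comparisons. At the low dose 4 of 6 choroid plexus, 4 of 8 cortical and hippocampal and 2 of 6 striatal markers rose, and 2 of 6 dopamine neuron and 4 of 8 endothelial and pericyte markers fell. At the high dose 2 of 6 choroid plexus and 2 of 8 cortical and hippocampal markers rose, 4 of 8 endothelial and pericyte markers fell, and 0 of the striatal and dopamine neuron markers passed. The choroid plexus, striatal, dopamine neuron and endothelial lists were not among the covariates, and their part in the members' calls was not tested. 

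**Figure D1:**
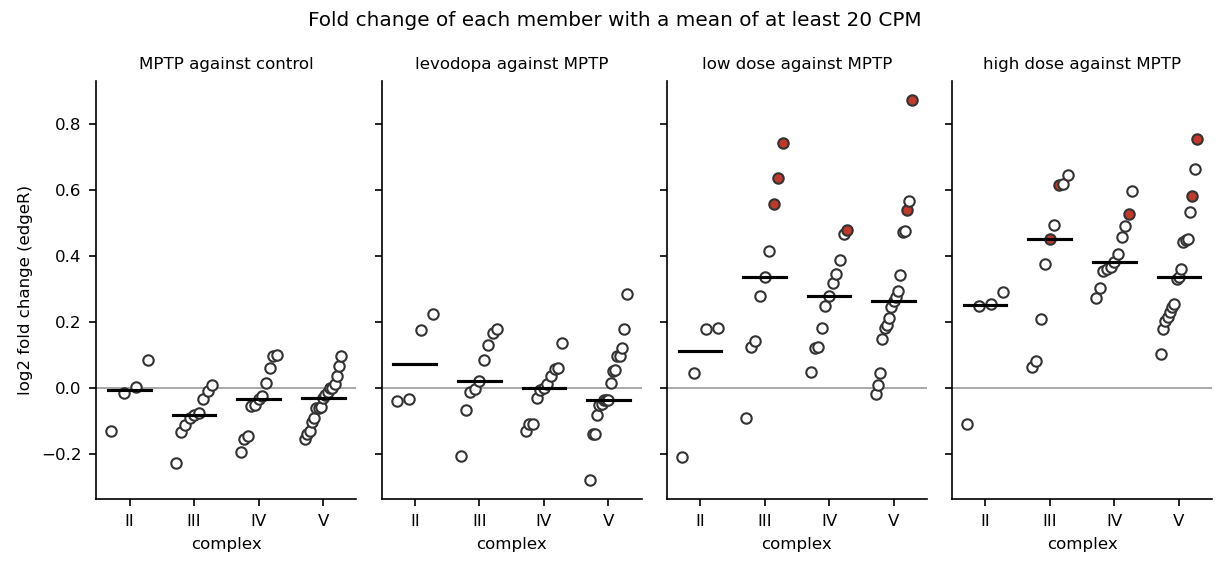
Log2 fold change (edgeR) of each of the 41 members with a mean of at least 20 CPM, by complex, in 4 comparisons; bars are medians and filled points passed the test. Points spread about 0 after MPTP and after levodopa and lie mostly above 0 at both inhibitor doses, where 6 and 5 members are filled.

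Complex II had 0 of 4 genes called at either dose and the lowest medians of the 4 complexes, 0.11 and 0.25, a difference that was not tested. Sdha, the flavoprotein that oxidizes succinate, had 416, 440.2 and 476 CPM in controls and 439, 430.1 and 465 CPM after MPTP. After the inhibitor it had 339, 418 and 396 CPM at the low dose and 424, 381 and 431 CPM at the high dose. All 3 low-dose libraries were below all 3 MPTP libraries, with a log2 fold change of −0.21 ± 0.11 (SE, adjusted p = 0.253), and the high-dose value was −0.11 ± 0.11 (adjusted p = 0.660). Sdhb, the iron-sulfur subunit, had 91.3, 87.6 and 87.0 CPM after MPTP, 92.7, 112 and 96.1 CPM at the low dose and 104, 114 and 107 CPM at the high dose. Both inhibitor groups lay above the MPTP group without overlap (0.18 ± 0.11 and 0.29 ± 0.11, SE; adjusted p = 0.319 and 0.166). Sdhc and Sdhd, the membrane anchors that bind ubiquinone, had log2 fold changes of 0.18 and 0.04 at the low dose and 0.25 each at the high dose, and did not pass. Their high-dose libraries all lay above the MPTP libraries.

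Complex III held 3 of the 6 genes called at the low dose and 2 of the 5 at the high dose. Uqcr11, one of its smallest subunits with 168 coding bases (chromosome 10, 80402997 to 80406821 of GRCm38.p6), had 48.1, 52.7 and 53.8 CPM in controls, 41.5, 44.8 and 45.7 CPM after MPTP and 42.2, 41.7 and 41.9 CPM after levodopa. It had 60.0, 79.1 and 81.4 CPM at the low dose and 59.3, 73.8 and 68.9 CPM at the high dose, so all 6 inhibitor libraries stood above the other 9. Its log2 fold change against MPTP was 0.74 ± 0.12 (SE, adjusted p = 0.00566) at the low dose and 0.61 ± 0.12 (adjusted p = 0.0282) at the high dose. At the low dose it was the 1 member still called without each compared library in turn, and it was not called with regional covariates (0.93 ± 0.34, adjusted p = 0.895).

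Uqcrq, the ubiquinone-binding subunit beside cytochrome b (chromosome 11, 53427922 to 53430831), also separated the 6 inhibitor libraries from the other 9. It had 60.2, 52.5 and 61.1 CPM after MPTP, 77.9, 109 and 69.1 CPM at the low dose and 80.0, 100.05 and 91.6 CPM at the high dose. It rose at the low dose (0.56 ± 0.15, SE; adjusted p = 0.0412), and at the high dose its log2 fold change was 0.64 ± 0.15 with an adjusted p of 0.05003, just above the threshold. Uqcr10, a small subunit next to cytochrome c1 (chromosome 11, 4701968 to 4704344), had 44.4, 45.3 and 44.5 CPM after MPTP and 53.1, 93.2 and 62.1 CPM at the low dose. That rise passed (0.64 ± 0.17, SE; adjusted p = 0.0407), although low dose 1 was below the 55.5 CPM of levodopa 1. At the high dose Uqcr10 had 63.8, 73.5 and 68.3 CPM and did not pass (0.62 ± 0.17, adjusted p = 0.0847).

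Uqcrfs1 encodes the Rieske iron-sulfur protein, which takes electrons from ubiquinol, and was the 1 redox subunit of complex III among the called genes. Located on chromosome 13 (30540312 to 30545316), it had 90.004, 84.2 and 87.4 CPM after MPTP and 111, 133 and 113 CPM at the high dose, a rise of 0.45 ± 0.10 (SE, adjusted p = 0.0483). Its low-dose libraries had 92.1, 112 and 113 CPM (0.28 ± 0.10, adjusted p = 0.114). The levodopa libraries, at 100.2, 99.6 and 95.8 CPM, also lay above the MPTP libraries, and low dose 1 was below all 3 of them.

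The remaining subunits of complex III did not pass the test at either dose. Cyc1, cytochrome c1, had log2 fold changes of 0.14 ± 0.14 and 0.06 ± 0.14 (SE) at the low and high doses. The core proteins had 0.12 ± 0.12 and 0.21 ± 0.12 (Uqcrc1) and −0.09 ± 0.11 and 0.08 ± 0.11 (Uqcrc2). Uqcrb and Uqcrh, 2 more small subunits, had 0.34 and 0.41 at the low dose and 0.37 and 0.49 at the high dose. At the high dose Uqcrc1 had 213, 206 and 203 CPM against 172, 176 and 191 CPM after MPTP. These groups did not overlap, nor did those of Uqcrb and Uqcrh, while those of Cyc1 and Uqcrc2 did.

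**Figure D2:**
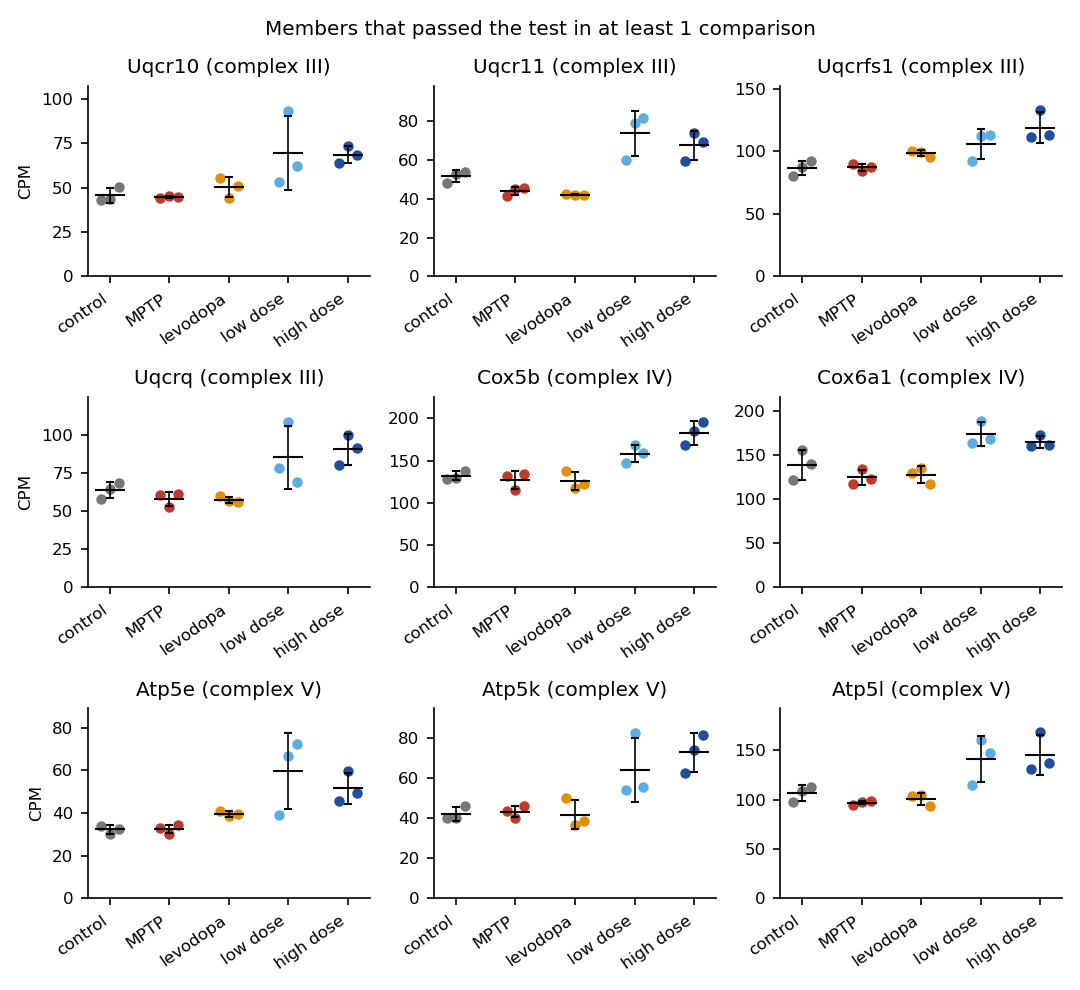
TMM-scaled CPM of the 9 members called in at least 1 comparison, by group; points are libraries 1 to 3 from left to right, and bars give the mean and SD of 3 libraries. Uqcr11, Uqcrq, Cox5b, Cox6a1, Atp5k and Atp5l have all 6 inhibitor libraries above the other 9, while low dose 1 overlaps the levodopa libraries for Uqcr10, Uqcrfs1 and Atp5e.

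Complex IV had 1 gene called at each dose. Cox6a1, the form of the regulatory subunit VIa made in most tissues (chromosome 5, 115345652 to 115348958), had 117, 134 and 123 CPM after MPTP, 164, 189 and 168 CPM at the low dose and 161, 173 and 161 CPM at the high dose. It rose at the low dose (0.48 ± 0.11, SE; adjusted p = 0.0203) and did not pass at the high dose (0.40 ± 0.11, adjusted p = 0.0735). Cox5b, a zinc-binding subunit on the matrix side (chromosome 1, 36691487 to 36693388), had 132, 115 and 135 CPM after MPTP, 147.5, 168 and 159 CPM at the low dose and 168, 185 and 196 CPM at the high dose. It rose at the high dose (0.53 ± 0.10, SE; adjusted p = 0.0279) and did not pass at the low dose (0.32 ± 0.10, adjusted p = 0.0706). For both genes the 6 inhibitor libraries stood above the other 9, the highest of which was control 2 for Cox6a1 (155 CPM). Medians over the 17 genes of complex IV were 0.18 at the low and 0.36 at the high dose.

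Several subunits of complex IV exist as alternative forms, and 1 form of each pair supplied most of the reads. Levels between genes are given here as CPM per kilobase of the representative GENCODE transcript, as a median over 15 libraries. Cox4i1 stood at 467 and Cox4i2, the form known from lung, at 1.59. Cox6a1 stood at 244 and Cox6a2, the form of heart and skeletal muscle, at 4.89. Cox6b1 stood at 218 and Cox6b2, known from testis, at 2.97. Cox7a2 stood at 115 and Cox7a1, the heart and muscle form, at 3.27, while the related Cox7a2l, which helps complexes III and IV join, stood at 125. Cox7b stood at 113 and Cox7b2 at 0.486, and Cox8a at 347 and Cox8b at 0.469. Of these 6 minor forms, 0 were called in any comparison.

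Among the minor forms, Cox6a2 varied most within groups. It had 3 reads in control 2, 10 in levodopa 2 and 28 in levodopa 1, against 131 to 373 reads in the other 12 libraries. The first pair are the libraries with the high cerebellar sums. Of the 5 interneuron markers, Pvalb was highest in them (424 and 370 CPM, next to 26.4 to 84.7 CPM elsewhere), as was Kcnc1. Kcnc2 was lowest in them (8.47 and 23.4 CPM, next to 82.3 to 219 CPM), as was Sst, so the markers went both ways. Levodopa 1 had the lowest cerebellar sum, at 133 CPM. Of 7 skeletal and heart muscle markers, Ckm was at most 0.0344 CPM in any library. The sum of all 7 was lowest in the high-cerebellum pair, at 3.89 and 6.73 CPM, and was 17.7 to 76.6 CPM elsewhere, with 20.0 CPM for levodopa 1. Myh6, Myh7, Tnnt2 and Actn2 were each lowest in that pair, Myl1 was highest there, and Acta1 was neither. Whether Cox6a2 follows these markers was not tested. The testis markers Prm1, Prm2, Tnp1 and Akap4 had 0 reads in all 15 libraries. Cox7a1 had a log2 fold change of −0.70 ± 0.28 (SE) at the low dose (adjusted p = 0.139) at 0.793, 1.01 and 0.701 CPM, below the 1.27, 1.49 and 1.29 CPM after MPTP. At the high dose it was −0.05 ± 0.28. Cox6b2 had values of −0.11 ± 0.35 and −0.27 ± 0.35. Cox8b had 0 to 31 reads per library, with 0 in MPTP 1, MPTP 3, levodopa 1 and high dose 1, and its fitted fold change is not given for that reason.

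Complex V held 2 called genes at each dose, with Atp5l called at both. Atp5e, the epsilon subunit of the F1 central stalk and the shortest member at 156 coding bases (chromosome 2, 174461075 to 174464101), had the largest fold change among the members called. It had 34.1, 30.3 and 32.6 CPM in controls, 33.0, 30.4 and 34.3 CPM after MPTP and 41.0, 38.5 and 39.4 CPM after levodopa. At the low dose it had 39.3, 66.8 and 72.6 CPM and rose by 0.87 ± 0.18 on the log2 scale (SE, adjusted p = 0.0163). Low dose 1 lay within the levodopa range, and the other 2 low-dose libraries were the highest of the 15. The high-dose libraries had 45.7, 59.7 and 49.2 CPM (0.66 ± 0.18, adjusted p = 0.0841).

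Atp5l and Atp5k encode subunits g and e, small membrane subunits where 2 ATP synthases join into a dimer. Atp5l (chromosome 9, 44913248 to 44920742) had 94.9, 97.8 and 98.2 CPM after MPTP, 115, 160.3 and 147 CPM at the low dose and 130.5, 168 and 137 CPM at the high dose. It rose at both doses (0.54 ± 0.13 and 0.58 ± 0.13, SE; adjusted p = 0.0271 and 0.0452). Atp5k (chromosome 5, 108433246 to 108434399) had 43.5, 40.2 and 45.9 CPM after MPTP, 54.2, 82.3 and 55.3 CPM at the low dose and 62.6, 74.1 and 81.6 CPM at the high dose. It passed at the high dose (0.75 ± 0.17, SE; adjusted p = 0.0480) and not at the low dose (0.56 ± 0.17, adjusted p = 0.0623). All 6 inhibitor libraries were above the other 9 for both genes. A further pair of subunits separated the libraries in this way without passing the test against MPTP, the delta subunit gene Atp5d (134 to 168 CPM against 109.9 to 132 CPM) and Atp5md, whose small product sits in the membrane part (97.2 to 144 CPM against 57.8 to 93.1 CPM).

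The main F1 subunits did not pass the test at either dose. Atp5b, the beta subunit that makes ATP, had 909, 949 and 1054 CPM after MPTP, 867, 1072 and 990 CPM at the low dose and 1031, 1030 and 1061 CPM at the high dose (0.01 ± 0.13 and 0.10 ± 0.13, SE). Atp5a1, the alpha subunit, had log2 fold changes of 0.15 ± 0.12 and 0.20 ± 0.12, and Atp5c1, the gamma subunit of the central shaft, had −0.02 ± 0.10 and 0.23 ± 0.10. At the high dose Atp5a1 had 829, 845 and 862 CPM against 728, 704 and 771 CPM after MPTP, and Atp5c1 had 216, 249.8 and 233 CPM against 187, 197 and 211 CPM. The groups did not overlap for these genes and overlapped for Atp5b. The 3 genes for the c ring, Atp5g1 to Atp5g3, encode the same mature protein and did not move alike across libraries. Atp5g2 had 23.2 CPM in low dose 3 against 46.5 to 73.4 CPM in the other 14 libraries, while Atp5g3 had 174 CPM there, below only low dose 2 and levodopa 1.

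**Figure D3:**
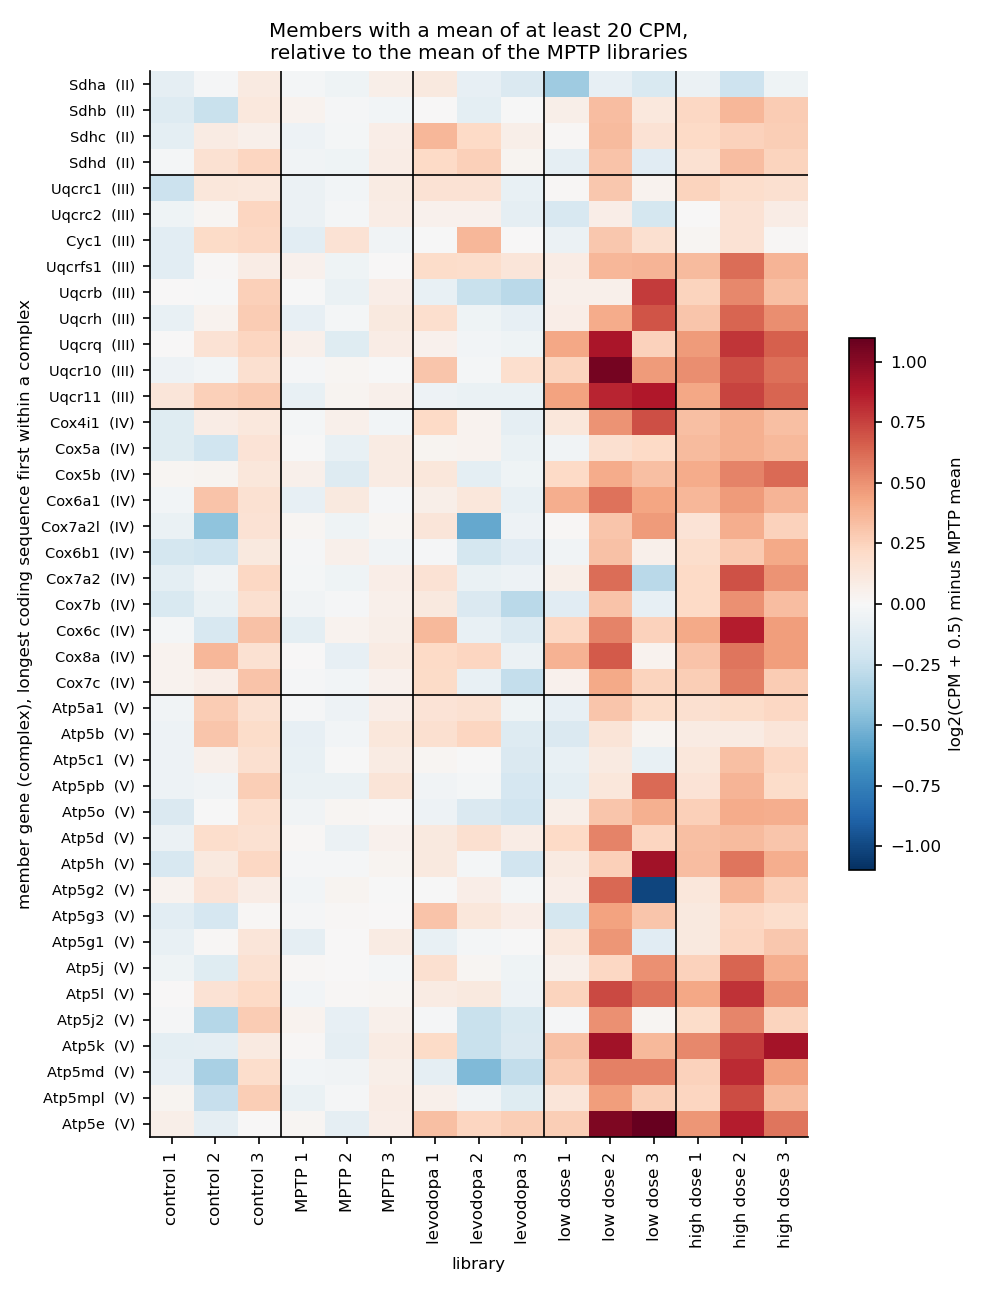
Log2(CPM + 0.5) of 41 members in each of the 15 libraries minus the mean of the MPTP libraries, with the longest coding sequence first within each complex. Red, meaning higher than MPTP, deepens toward the shorter genes of complexes III to V in the inhibitor libraries, and the single dark blue cell is Atp5g2 in low dose 3.

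Counted by library rather than by the test, 19 of the 47 members had all 3 low-dose libraries above all 3 MPTP libraries, and 2 had all 3 below. The share of all genes lying wholly above was 20.9% and wholly below 19.8%, so the members' count is 19 of 47 beside that background. At the high dose 37 of the 47 lay wholly above and 0 below, beside 20.4% of all genes above and 19.4% below. The 37 were 3 of 4 genes of complex II, 7 of 9 of complex III, 11 of 17 of complex IV and 16 of 17 of complex V. All 6 inhibitor libraries exceeded the other 9 for 8 members (Uqcr11, Uqcrq, Cox5b, Cox6a1, Atp5d, Atp5k, Atp5l and Atp5md), beside 4.69% of all genes, and lay below for 0 (3.87% of all genes). The members together took 0.643 to 0.673% of reads in MPTP libraries, 0.648, 0.806 and 0.742% at the low dose and 0.749, 0.801 and 0.799% at the high dose. Controls took 0.622 to 0.718%, so low dose 1 lay within the control range and the high-dose libraries all lay above it.

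The 2 doses gave no difference that passed. High against low dose called 0 of 47 members and 0% of all genes, with 3 members (Atp5c1, Cox7a1 and Cox5a) and 486 genes at an unadjusted p below 0.05. DESeq2 likewise called 0 members. The median was 0.09, with values from −0.39 to 0.65. It was 0.01 without low dose 1, 0.03 without high dose 2, 0.14 without high dose 1 and 0.19 without low dose 2. Members at an unadjusted p below 0.05 numbered 12 without low dose 2 and 0 without high dose 2 or high dose 3. Against control, the low dose called Atp5e (0.88 ± 0.18, SE; adjusted p = 0.0238) and Uqcr11 (0.51 ± 0.12, adjusted p = 0.0338), beside 2.74% of all genes called as rising and 2.66% as falling. The high dose called 0 members against control, beside 0.215% rising and 0.16% falling, with 21 members and 4370 genes at an unadjusted p below 0.05. DESeq2 called 13 of the members there and 1477 of all genes. The member medians against control were 0.24 and 0.33. At the low dose 0 members were called against control without control 2, control 3, low dose 2 or low dose 3. Without low dose 1 the count was 6, without control 1 it was 2 (1 higher and 1 lower), and without both high-cerebellum libraries, control 2 and levodopa 2, it was 3. In that order, those fits called 487, 1444 and 1859 of all genes. Both control comparisons share the 3 control libraries, and the inhibitor libraries are those already set against MPTP.

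Fold change followed coding length within the members, and the same order of classes held for other genes. Among the 41 members with at least 20 CPM, 15 had up to 300 coding bases, 15 had over 300 and up to 600, 6 had over 600 and up to 1200, and 5 had more. In that order the median log2 fold changes at the high dose were 0.49, 0.35, 0.27 and 0.10. Other genes of the same classes, filtered at the same level, had medians of 0.27, 0.22, 0.09 and −0.08. At the low dose the members' medians were 0.39, 0.28, 0.21 and 0.01, and those of other genes 0.30, 0.20, 0.08 and −0.05. Calls of other genes as rising also became rarer with length, from 15.2 to 4.5% at the low dose and from 5.52 to 0.687% at the high dose. Spearman's rho between fold change and coding length across the 41 members was −0.63 at the low dose and −0.80 at the high dose. Across 8248 other genes it was −0.28 and −0.40. These points share the same libraries and are not independent, so no test was made. After MPTP and after levodopa rho across the members was −0.04 and 0.18. Across the other genes it was −0.17 and 0.18, so an order by length was also present without the inhibitor. Library totals and mitochondrial ribosomal RNA also separated the inhibitor libraries from the rest, and their part in the length order was not tested.

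**Figure D4:**
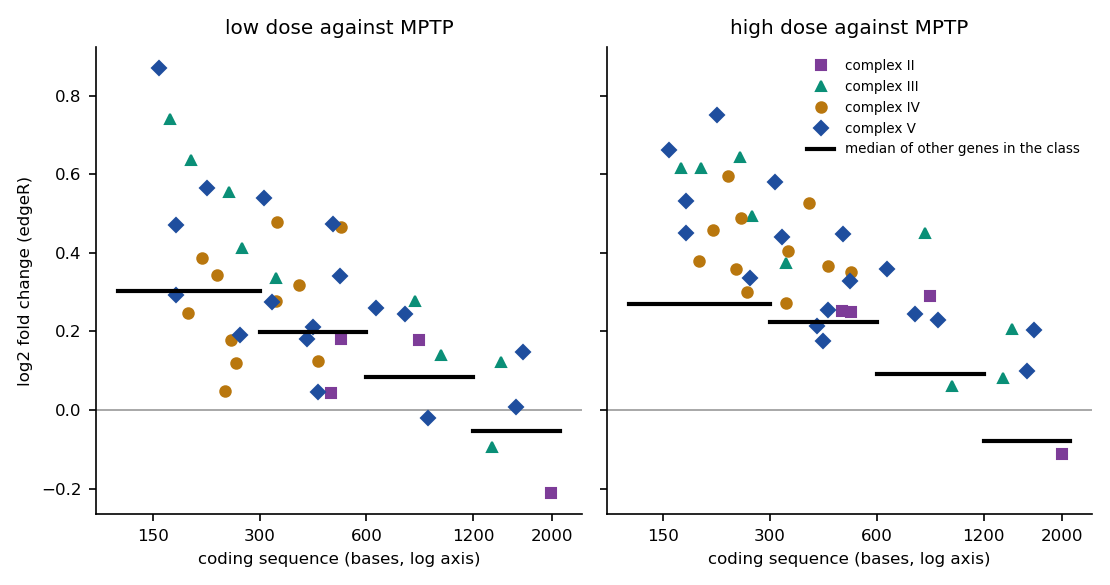
Log2 fold change against MPTP (edgeR) of 41 members by coding length in bases on a log axis, at the low and the high dose; symbols mark the complex and black bars the median of other genes in each of 4 length classes. Members of up to 300 bases have medians of 0.39 and 0.49, and those over 1200 bases 0.01 and 0.10, with the bars of other genes falling in the same order.

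In these genes the low-dose libraries differed from each other more than those of any other group. Relative to the mean of their own group, the 41 members averaged −0.18 in low dose 1, 0.18 in low dose 2 and 0.00 in low dose 3 on the log2 scale. Low dose 3 had the widest spread among members of the 15 libraries (SD 0.25), while the SD over 8458 other genes was 0.19 there. In the high-dose libraries the SD among members was 0.06 to 0.09. Below the mean in low dose 3 were Atp5g2 (−0.91), Cox7a2 (−0.42) and Cox8a (−0.32). Above it were Atp5h (0.50), Uqcrb (0.47) and Atp5pb (0.41), which encode the d subunit of the ATP synthase stalk, a small complex III subunit and the b subunit of the same stalk. Atp5g2 had 1325 reads there against 2953 and 4523 in low dose 1 and 2. Its pseudogenes Gm10175 and Gm10231, which match its coding sequence at 100% identity, were also lowest there, with 107 and 80 reads. Without low dose 1 the members' median against MPTP was 0.36 in place of 0.24 and 7 were called, beside 3.12% of all genes rising. Without low dose 2 and without low dose 3, 2 and 3 were called, beside 3.18% and 1.79%.

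**Figure D5:**
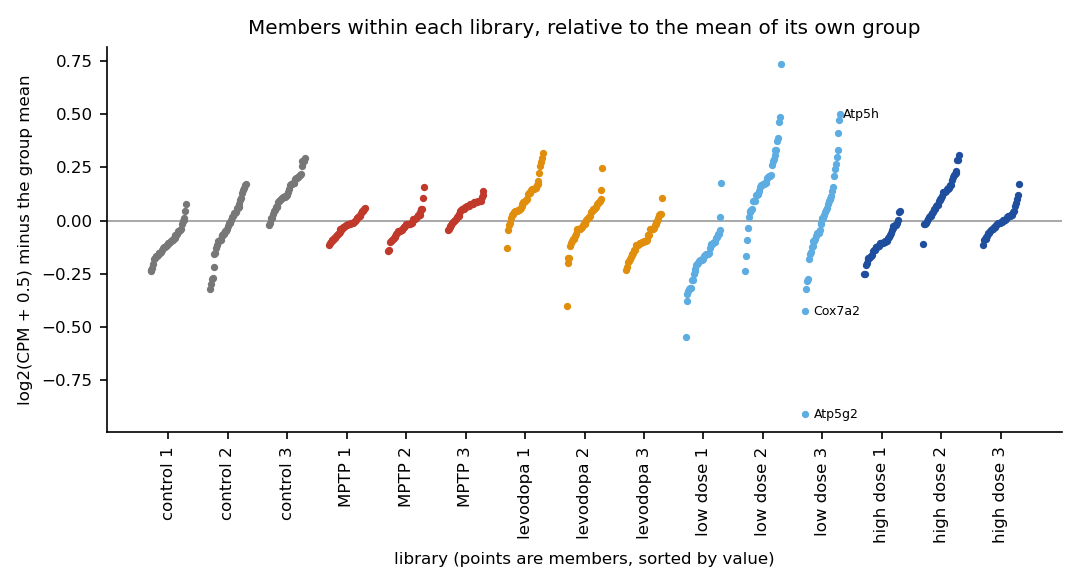
Log2(CPM + 0.5) of 41 members in each library minus the mean of the library's own group, sorted within each library. The members average −0.18 in low dose 1 and 0.18 in low dose 2, and low dose 3 spreads from −0.91 (Atp5g2) to 0.50 (Atp5h).

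Genes around the complexes were also read as lists, beside the share of all genes called. Of 38 assembly and copper delivery factors, 37 were tested. Against MPTP, 3 rose at the low dose and 1 at the high dose, with medians of 0.11 and 0.13. Of all genes, 4.78% rose at the low dose and 1.08% at the high dose. Pet100, which helps build complex IV, had 10.4, 7.96 and 8.39 CPM after MPTP, 11.5, 14.8 and 16.5 CPM at the low dose and 12.1, 17.7 and 16.3 CPM at the high dose. It rose at both doses (0.72 ± 0.18 and 0.81 ± 0.18, SE; adjusted p = 0.0309 and 0.0436). Cox19 (0.45 ± 0.12, adjusted p = 0.0372) and Coa6 (0.58 ± 0.16, adjusted p = 0.0448), both tied to copper delivery to complex IV, rose at the low dose. The 6 subunits of complexes III to V encoded by mitochondrial DNA took 3.50 to 5.97% of reads in the 9 libraries without inhibitor and 4.41 to 6.53% in the 6 with it. Of these 6 genes 0 were called in any comparison, and their medians against MPTP were −0.02 and 0.12.

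Neighbouring pathways gave 0 calls against MPTP. This held for 17 citrate cycle enzymes, with medians of −0.01 at the low and 0.14 at the high dose. It also held for 12 carriers and outer membrane proteins, with 0.10 and 0.23. Of all genes, 4.78% rose and 3.75% fell at the low dose, and 1.08% rose and 0.884% fell at the high dose. In lists this short, 0 calls differ little from those shares. Cytochrome c (Cycs), the carrier between complexes III and IV, had log2 fold changes of 0.21 ± 0.13 and 0.48 ± 0.13 (SE; adjusted p = 0.336 and 0.0777). Of 13 transcriptional regulators of nuclear respiratory genes, 0 passed against MPTP. At the low dose against control 1 fell, beside 2.66% of all genes. That gene was Ppargc1a, a coactivator of mitochondrial genes, with 65.9, 79.7 and 77.8 CPM in controls and 41.7, 46.1 and 50.1 CPM at the low dose (−0.70 ± 0.18, SE; adjusted p = 0.0467). Nrf1 had −0.28 ± 0.17 and −0.36 ± 0.17 against MPTP at the low and high doses, and Gabpa had 0.13 ± 0.17 and −0.07 ± 0.17, without passing.

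Many of these genes have near-identical processed copies, and the sources used here do not say how shared reads were assigned. Copies were taken as transcripts of other genes with at least 90% identity over at least 50% of a member's coding sequence. Summed over all copies, the largest counts were on those of Atp5l (390 to 895 reads per library, against 6415 to 10075 on Atp5l), of Cox7c (405 to 708 against 5230 to 8086) and of Cox7a2l (253 to 693 against 5561 to 10487). Copies of Atp5g2 had 187 to 592 reads against 1325 to 4523. Levels of these 4 are therefore uncertain by an amount that was not measured. Copies of Cox5b had 56 to 128 reads, those of Uqcr10, Uqcr11 and Atp5k at most 6, and no copy of Uqcrq, Cox6a1, Uqcrfs1 or Atp5e was among the symbols measured.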

How the data were processed

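Reads per gene symbol in each of 15 libraries were the deposited counts, whole numbers made by the authors and not normalized. The tools were StringTie 2.1.3b, HISAT2 2.1.0, bcl2fastq 2.20.0 and Trimmomatic, per the submitters' processing notes. The sources used here give no annotation, strand setting or handling of shared reads, and a gene that overlaps another is uncertain for that reason. Per the labels' protocols the kit was TruSeq Stranded mRNA.

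All genes were fitted with edgeR 4.0.16 (R 4.3.3): TMM scaling, filterByExpr by group, 1 quasi-likelihood fit of 15 libraries without covariates, and Benjamini-Hochberg adjustment over 21821 genes, called below 0.05, two-sided. SE is the log2 fold change over the square root of F. DESeq2 1.42.0, other filters and scalings, the compared groups alone, the replicate block, regional covariates and each library left out were alternatives. Within-group library pairs differed beyond sampling noise (chi-square per degree of freedom 31.7 to 512). Coding lengths came from GENCODE M21, loci and promoters from RefSeq (47 and 36 genes used), and copies from blastn 2.17.0.

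Members, lists and alternatives were chosen with earlier results of these data known. Named in full were members called in any comparison, the Sdh genes, the 2 highest and 2 lowest per complex at the low dose against MPTP, alternative forms, and called pathway genes. Other genes were named after their values were seen. Floors and counts cover counting error only: 3 reads are at most 0.0516 CPM.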

Additional observations from a re-analysis of the deposited data

Results flagged for a closer look

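The pseudogene Atp5l2-ps, matched by the symbol pattern but left out of the members, had reads in the inhibitor libraries above those in controls. It had 118, 151 and 270 reads at the low dose and 104, 178 and 192 at the high dose, against 87 to 107 in controls, 97 to 115 after MPTP and 70 to 84 after levodopa. High dose 1 lay within the control range. The pseudogene matches the coding sequence of Atp5l at 99.4% identity, and Atp5l itself rose in the same libraries. Whether its reads came from Atp5l was not tested.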

How the results depend on the processing

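No member's fold change reversed among the 182 alternatives of the 13 called values, of which 95 remained called and 87 did not pass. Low dose against MPTP (6 members) gave 10 with DESeq2, 0 with regional covariates, 11 without the 2 high-cerebellum libraries and 1 to 7 with 1 library left out. Of all genes, 8.33% rose with DESeq2, 0% with the covariates and 12.0% without those 2 libraries, against 4.78% in the main fit. High dose against MPTP (5) gave 15 with DESeq2, 0 with regional covariates, 13 without those 2 libraries and 0 each time with 1 library left out. It also gave 2 with no filter on low counts and 27 with the compared groups alone. Of all genes, 4.48% rose with DESeq2, 5.89% without those libraries, 0.338% with no filter and 9.36% with the compared groups alone. The main fit had 1.08%. Low dose against control (2) gave 8 with DESeq2 (7 higher, 1 lower), 1 with no filter, 4 with a minimum of 5 CPM, 0 with regional covariates, 0 with the compared groups alone and 0 to 6 with 1 library left out. Of all genes, 6.19% rose there with DESeq2, 0.863% with no filter and 4.83% with that minimum, against 2.74% in the main fit. High dose against control (0) gave 13 with DESeq2 and 3 with a minimum of 5 CPM. In those fits 3.28% and 0.958% of all genes rose, against 0.215% in the main fit. The other 3 comparisons gave 0 under every alternative run. All-gene calls moved too: at the high dose against MPTP 429 genes were called, and 1742 with DESeq2 and 3560 with the compared groups alone. Without the 2 high-cerebellum libraries 5288 genes were called at the low dose against MPTP and 2477 at the high dose. Replicate numbers were not taken to pair libraries: in 0 of the 7 comparisons made did every equal-numbered pair correlate above 0.1 in its deviations from the group means. Control and levodopa, which were not compared, did so (0.48, 0.93 and 0.62), with the 2 high-cerebellum libraries as the second of these pairs. Of their unequal-numbered pairs, control 1 with levodopa 3 had 0.81 and control 3 with levodopa 1 had 0.80, and the rest were negative. With the replicate number as a block, low and high dose against MPTP gave 4 and 3 members, low dose against control 2, and the others 0. The low dose against MPTP then had 4.32% of all genes rising, and the high dose 0.486%. The low dose against control had 2.39%. Causes were not tested. Members of at least 20 CPM had 1325 to 75049 reads per library. The 6 minor forms of complex IV, at up to 5.46 CPM, limit what could be detected for them.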
